A study of Brassica oleracea var. italica with 18 samples.

Results

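The dark-green module is a set of 34 array probes, of 43603 probes measured in broccoli shoot meristems, that the study grouped by co-expression and selected for a level that goes with temperature. Membership came from the study's list of module probes. The study first kept probes that differed between its heat-tolerant and heat-sensitive lines, clustered them by their correlation over the same 18 arrays, and picked modules that followed temperature. The levels of the members by line and temperature are therefore what chose them, and they are given here as a description that supports nothing on its own. Arrays were 1-colour Agilent arrays of a Brassica napus design, so a broccoli transcript may bind a probe made for a related copy. Every group was Brassica oleracea var. italica grown under long days at 22 °C and then moved to its own temperature, for 2 weeks by the labels and 10 days by the methods. The heat-tolerant line (HT) was sampled at 15, 22 and 27 °C and the heat-sensitive line (HS) at the same temperatures, with 3 arrays for each of the 6 groups. The methods call these biological replicates. It is not clear from them if the RNA on an array came from a single plant or from several.

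Co-expression modules gather transcripts that go up and down together over a set of samples. Chloroplasts of green cells hold the light-harvesting complexes, make chlorophyll and plastid quinones, and store starch that beta-amylases break down to maltose. Meristem cells carry small undifferentiated plastids, and these develop into chloroplasts in the young leaves and stem tissue around the meristem. The roles below are those of the Arabidopsis genes to which the study matched the probes.

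Of the 34 members, 26 carry an Arabidopsis locus, and these name 25 loci because 2 probes belong to BAM3. By description, 9 probes belong to plastids, 3 to transcription factors, 7 to other enzymes, redox proteins and transporters, 6 to other described proteins, and 9 have no locus or an unknown product. All values are log2 intensities, quantile-normalized between arrays, and an intensity is not compared between different probes. The scanner software placed 33 members well above background on all 18 arrays. The exception was XND1, which was not well above background on the HT array of 27 °C replicate 3.

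In every member the mean at 27 °C was below the mean at 15 °C, in both lines. The median difference of the 34 members was -0.52 in HT and -0.81 in HS, while the median of all probes was 0.01 in HT and 0 in HS. The size differed widely among members. Differences ran between -1.96 and -0.11 in HT and between -2.15 and -0.02 in HS. In the fit over all probes (limma, adjusted p under 0.05), 13 members were called lower at 27 °C than at 15 °C in HT, where 9.25% of all probes were called lower, and 19 members in HS, where 8.04% were. Of these, 12 members were called in both lines, 1 in HT alone, 7 in HS alone and 14 in neither. The 27 °C and 15 °C arrays did not overlap for 19 members in HT, where 18.3% of all probes lay wholly lower, and for 24 members in HS, where 15.2% did. The rule used this contrast, so nothing is read from these shares. The 15 °C arrays were hybridised on 2 slides that hold no array of another temperature, so differences from 15 °C and differences between slides cannot be told apart.

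**Figure D1:**
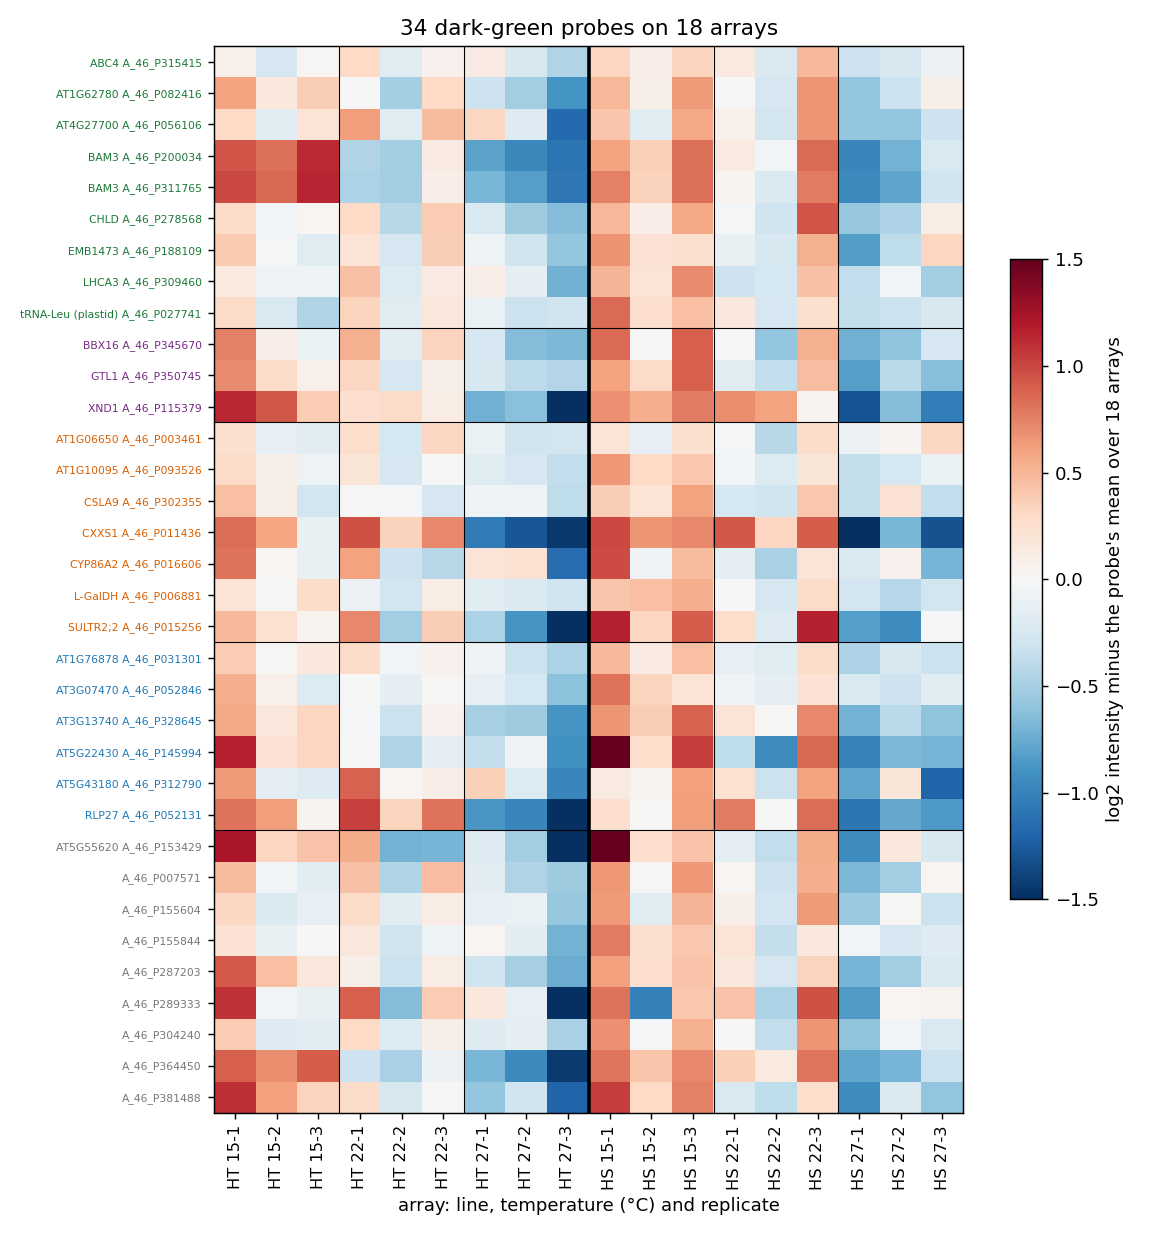
Log2 intensity of the 34 dark-green probes on 18 arrays, each probe centred on its mean over all arrays; columns are arrays (HT left, HS right, 15 to 27 °C within a line, 3 replicates each), rows are probes coloured by role (green plastid, purple transcription factors, orange enzymes, blue other described, grey no locus or unknown), and values past the ends of the colour bar take its end colours. Arrays of 27 °C are mostly blue, and whole columns stand out within a group, such as HT 27 °C replicate 3 (module mean -0.90) and HS 22 °C replicate 3 (0.54).

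Among the plastid members, both probes of BAM3, a chloroplast beta-amylase that releases maltose from starch, showed the widest differences. BAM3 (A_46_P311765) had log2 intensities of 9.56, 9.43 and 9.71 at 15 °C, 8.09, 8.05 and 8.66 at 22 °C and 7.88, 7.74 and 7.49 at 27 °C in HT, against 9.32, 8.91 and 9.39, then 8.61, 8.35 and 9.34, then 7.61, 7.78 and 8.27 in HS. At 27 °C it stood 3.64-fold below 15 °C in HT and 2.49-fold below in HS. In HT the 22 °C arrays lay wholly below the 15 °C arrays, whereas in HS replicate 3 of 22 °C was as high as the 15 °C arrays. BAM3 (A_46_P200034) had 10.60, 10.49 and 10.78 at 15 °C, 9.21, 9.15 and 9.78 at 22 °C and 8.86, 8.70 and 8.56 at 27 °C in HT, against 10.27, 10.02 and 10.49, then 9.80, 9.62 and 10.51, then 8.68, 8.95 and 9.43 in HS. These 2 probes have different targets in the design and correlated over the 18 arrays with r = 0.994, so they are not independent readings.

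LHCA3, a light-harvesting protein of photosystem I, moved less. LHCA3 (A_46_P309460) had 12.36, 12.17 and 12.14 at 15 °C, 12.66, 12.01 and 12.34 at 22 °C and 12.32, 12.08 and 11.50 at 27 °C in HT, against 12.73, 12.42 and 12.93, then 11.91, 11.95 and 12.66, then 11.85, 12.18 and 11.70 in HS. Its HT arrays overlapped between all temperatures, and its HS arrays of 27 °C lay below those of 15 °C. CHLD (A_46_P278568), a subunit of the Mg-chelatase that opens the chlorophyll branch, had 10.65, 10.32 and 10.40 at 15 °C, 10.66, 9.95 and 10.75 at 22 °C and 10.14, 9.83 and 9.71 at 27 °C in HT, against 10.86, 10.46 and 10.94, then 10.35, 10.07 and 11.31, then 9.80, 9.90 and 10.48 in HS. In HT the 27 °C arrays of CHLD lay below the 15 °C arrays, and in HS they overlapped at one array. The tRNA-Leu (plastid) probe (A_46_P027741) had 13.75, 13.24 and 13.02 at 15 °C, 13.80, 13.28 and 13.64 at 22 °C and 13.37, 13.14 and 13.17 at 27 °C in HT, against 14.31, 13.72 and 13.92, then 13.63, 13.21 and 13.71, then 13.11, 13.14 and 13.23 in HS. Its 27 and 15 °C arrays overlapped in HT and were apart in HS. The other plastid members were ABC4, a phytyltransferase of phylloquinone and plastoquinone synthesis, EMB1473, a plastid ribosomal protein, a thylakoid rhodanese-like protein (AT4G27700) and a chloroplast protein of unknown function (AT1G62780). Their differences at 27 °C from 15 °C were -0.13, -0.38, -0.46 and -0.95 in HT, and -0.46, -0.67, -0.77 and -0.68 in HS, in that order. Of the 9 plastid probes, 3 were called lower in HT (33.3%) and 4 in HS (44.4%). The shares were 38.2% and 55.9% of all 34 members, and 9.25% and 8.04% of all probes. Leaving out 1 array ended the HS call of LHCA3 in 11 of 22 alternatives, that of tRNA-Leu in 1 and the HT call of AT1G62780 in 4.

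The other temperature modules were chosen in the same way, so their counts are descriptions too. In the magenta module 16 of 19 probes with a chloroplast description were called lower at 27 °C than at 15 °C in HT and 16 in HS. In the pink module 14 of 22 were lower in HT and 12 in HS. The brown module, selected for higher levels at higher temperature, had 38 such probes, of which 31 were called higher in HT and 25 in HS. Of the whole magenta module, 86% were called lower in HT and 83.8% in HS, and of the pink module 76.5% and 71.8%. Of the whole brown module, 79.7% and 60.8% were called higher. Of all 43603 probes, 9.25% and 8.04% were called lower, and 3866 and 3465 probes higher. No trait of chloroplast probes is read from these module counts. Among 122 chloroplast probes outside these modules, taken from an incomplete list of probes higher in HT, 13 were called lower and 8 higher in HT, with a median of -0.03, and 8 lower and 8 higher in HS, with a median of -0.09. The lower calls lay near the share of all probes, with 13 of 122 beside 9.25% in HT and 6.56% beside 8.04% in HS. Outside the dark-green module the starch words matched 8 probes. Of 3 pink probes, 1 was called lower in HT and 2 in HS. The 1 magenta probe, A_46_P265598 of BAM3, was called lower in both lines, and both brown probes were called higher in both. Of 2 probes on the incomplete list, 1 was called higher in HT and 0 were called in HS.

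The 3 transcription factors were BBX16, a B-box protein with a CCT domain, GTL1, a trihelix factor known in Arabidopsis for trichome growth and stomatal density, and XND1, a NAC protein of the xylem. XND1 (A_46_P115379) had 7.26, 7.06 and 6.50 at 15 °C, 6.37, 6.41 and 6.23 at 22 °C and 5.40, 5.50 and 4.02 at 27 °C in HT, against 6.81, 6.67 and 6.90, then 6.82, 6.73 and 6.16, then 4.83, 5.47 and 5.09 in HS. The 27 °C arrays lay below all others in both lines, 3.90-fold below 15 °C in HT and 3.17-fold below in HS. Without HT 27 °C replicate 3, where XND1 was not well above background, the HT difference was -1.49 (2.80-fold). BBX16 (A_46_P345670) had 12.72, 12.06 and 11.86 at 15 °C, 12.50, 11.81 and 12.30 at 22 °C and 11.71, 11.31 and 11.29 at 27 °C in HT, against 12.81, 11.98 and 12.86, then 11.95, 11.39 and 12.50, then 11.24, 11.36 and 11.71 in HS. Its 27 °C arrays were below those of 15 °C in both lines, and the 22 °C arrays overlapped both neighbours in HS. GTL1 (A_46_P350745) had 7.11, 6.69 and 6.48 at 15 °C, 6.71, 6.15 and 6.49 at 22 °C and 6.16, 6.00 and 5.96 at 27 °C in HT, against 7.00, 6.69 and 7.30, then 6.22, 6.03 and 6.86, then 5.57, 5.99 and 5.76 in HS. Its group means followed the order of temperature in both lines, but its 15 and 22 °C arrays overlapped and neither step was called. At 27 °C against 15 °C, XND1 and GTL1 were called lower in HT and all 3 factors in HS. The HT call of GTL1 was lost in 13 of 22 alternatives, 11 of which left out 1 array, and the HS call of BBX16 in 4 that left out 1 array.

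Among enzymes, redox proteins and transporters, CXXS1, an unusual thioredoxin with 1 redox cysteine, had the largest difference of all members in HS. CXXS1 (A_46_P011436) had 9.00, 8.75 and 8.05 at 15 °C, 9.12, 8.51 and 8.88 at 22 °C and 7.11, 6.88 and 6.72 at 27 °C in HT, against 9.15, 8.82 and 8.88, then 9.09, 8.49 and 9.07, then 6.08, 7.48 and 6.86 in HS. Its 15 and 22 °C arrays overlapped in both lines, and it lay 3.24-fold below 15 °C at 27 °C in HT and 4.43-fold below in HS. SULTR2;2 (A_46_P015256), a sulfate transporter, had 11.34, 11.08 and 10.90 at 15 °C, 11.57, 10.33 and 11.22 at 22 °C and 10.38, 9.97 and 9.04 at 27 °C in HT, against 12.01, 11.17 and 11.76, then 11.11, 10.66 and 12.01, then 10.02, 9.91 and 10.83 in HS. The larger difference was at the upper step, with a wide spread at 22 and 27 °C, and its HS call at 27 °C against 15 °C was lost in 10 alternatives that left out 1 array. L-GalDH (A_46_P006881), an enzyme of ascorbate synthesis, had 11.99, 11.79 and 12.06 at 15 °C, 11.69, 11.50 and 11.89 at 22 °C and 11.60, 11.56 and 11.48 at 27 °C in HT, against 12.20, 12.23 and 12.33, then 11.79, 11.53 and 12.07, then 11.49, 11.35 and 11.51 in HS. Its differences were small beside those of CXXS1, and it was called in both lines, but the HT call was lost in 12 of 22 alternatives, each of which left out 1 array.

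The remaining members of that group were CSLA9, a beta-mannan synthase, CYP86A2, a cytochrome P450, a prenyltransferase-family protein (AT1G10095) and a dioxygenase-like protein (AT1G06650). At 27 °C against 15 °C they differed by -0.25, -0.48, -0.36 and -0.20 in HT, and by -0.56, -0.75, -0.68 and -0.02 in HS, in that order. Only the prenyltransferase-family protein was called among these 4, and only in HS. The dioxygenase-like protein (A_46_P003461) was the single member whose mean at 27 °C was above that at 22 °C in HS, with 13.31, 13.43 and 13.70 at 27 °C against 13.36, 12.98 and 13.67 at 22 °C.

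RLP27, a receptor-like protein, had the largest difference among the other described members in HT, and AT5G22430 in HS. RLP27 (A_46_P052131) had 9.90, 9.71 and 9.13 at 15 °C, 10.11, 9.41 and 9.89 at 22 °C and 8.21, 8.10 and 7.45 at 27 °C in HT, against 9.33, 9.10 and 9.71, then 9.86, 9.09 and 9.92, then 8.00, 8.31 and 8.22 in HS. It was 3.16-fold below 15 °C at 27 °C in HT and 2.30-fold below in HS, with no overlap. AT5G22430 (A_46_P145994), of the pollen allergen and extensin family, had 8.83, 7.88 and 7.98 at 15 °C, 7.67, 7.21 and 7.51 at 22 °C and 7.30, 7.61 and 6.75 at 27 °C in HT, against 9.37, 7.92 and 8.70, then 7.28, 6.72 and 8.52, then 6.66, 6.99 and 6.96 in HS. The HS arrays at 15 °C spread over more than 1 log2 unit. A ribonuclease III family protein (AT3G13740) was 2.00-fold lower in HT and 2.32-fold lower in HS at 27 °C than at 15 °C. Differences of the other 3, AT3G07470, AT5G43180 and AT1G76878, were between -0.47 and -0.38 in HT and between -0.87 and -0.69 in HS. AT1G76878 is described as a possible natural antisense gene overlapping AT1G76880, and nothing here separates the strands.

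Of the 9 members with no locus or an unknown product, 3 were called lower in HT and 3 in HS at 27 °C against 15 °C. Of all probes, 9.25% and 8.04% were called lower. A_46_P364450 had 13.27, 13.07 and 13.28 at 15 °C, 12.06, 11.89 and 12.28 at 22 °C and 11.69, 11.42 and 10.94 at 27 °C in HT, against 13.18, 12.79 and 13.09, then 12.73, 12.52 and 13.17, then 11.59, 11.67 and 12.05 in HS. Its pattern was close to that of BAM3, and its design target is the same as that of a magenta probe described as BAM3, so it may measure the same transcript. A_46_P304240 and A_46_P155604 share 1 target and correlated with r = 0.983, so they count as 1 transcript. The 34 probes stand for 33 targets.

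The members differed in the step at which their means were lower. In HT, 12 members had a higher mean at 22 °C than at 15 °C, and all 34 had a lower mean at 27 °C than at 22 °C. Medians of the members were -0.10 for 22 °C against 15 °C and -0.48 for 27 °C against 22 °C. In HS, 2 members, RLP27 and A_46_P289333, had a higher mean at 22 °C than at 15 °C, and the medians were -0.35 and -0.47. The step after 22 °C was the larger one for 25 members in HT and 19 in HS. BAM3, with steps of -1.30 and -0.56 for A_46_P311765, and A_46_P364450, with -1.13 and -0.73, had their larger step below 22 °C in HT. In HS the same 2 probes had -0.44 and -0.88, and -0.22 and -1.03, with the larger step above 22 °C. The array of HS 22 °C replicate 3 set much of this order. Without it, BAM3 (A_46_P311765) had steps of -0.73 and -0.59 in HS, with the larger one below 22 °C as in HT. The other BAM3 probe, A_46_P200034, kept its larger step above 22 °C, with -0.55 and -0.69, as did A_46_P364450, with -0.40 and -0.85. Without that array the step after 22 °C was the larger one for 9 members instead of 19. Leaving out any other single HS array gave between 15 and 28 members. In HT, leaving out single arrays gave between 20 and 28 members, beside 25 with all arrays. At 22 °C against 15 °C, 3 members were called lower in HT (both BAM3 probes and A_46_P364450), where 5.15% of all probes were called lower, and 1 in HS (L-GalDH), where 3.22% were. At 27 °C against 22 °C, 2 were called lower in HT (CXXS1 and RLP27), where 0.805% of all probes were, and 5 in HS (CXXS1, RLP27, XND1, A_46_P364450 and AT3G13740), where 0.949% were.

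**Figure D2:**
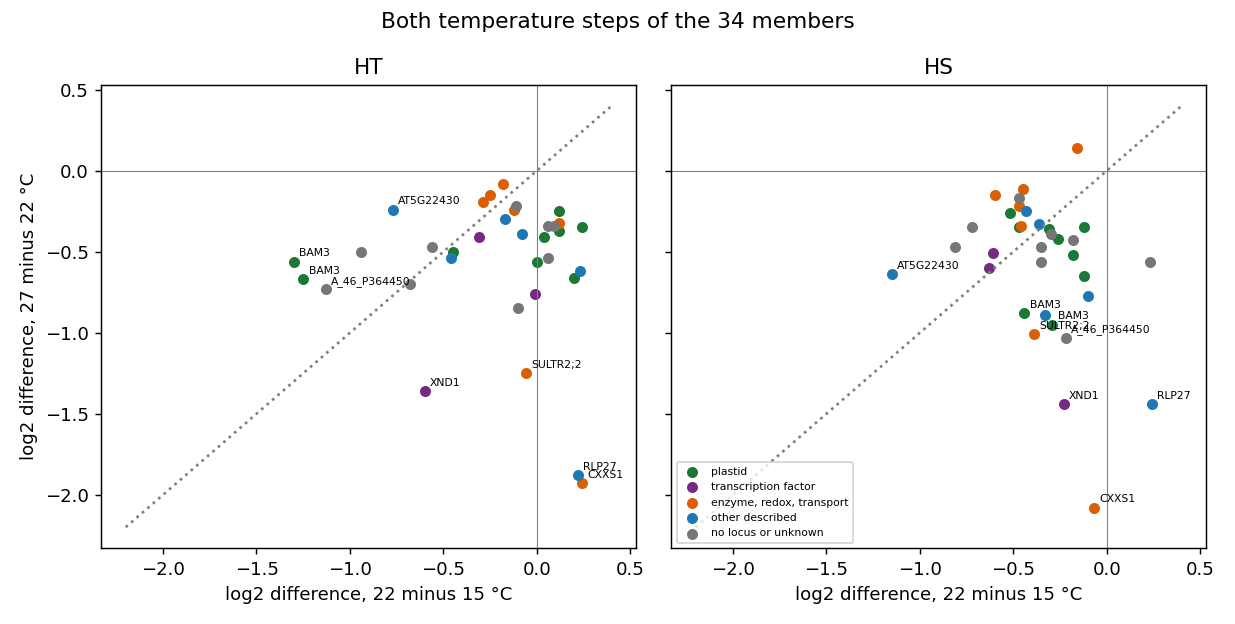
Log2 difference of 22 minus 15 °C (horizontal axis) and of 27 minus 22 °C (vertical axis) for the 34 members in HT (left) and HS (right); points are probes coloured by role, names mark the members described by name for their steps or size, and the dotted line marks equal steps. CXXS1 and RLP27 lie among the lowest points in both panels, and the BAM3 probes lie far left in HT (-1.30 and -1.25) but not in HS (-0.44 and -0.29).

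The 12 members with a higher mean at 22 °C than at 15 °C in HT were higher by at most 0.24, and none of them was called. They were CXXS1, RLP27, AT5G43180, LHCA3, EMB1473, ABC4, the rhodanese-like protein, tRNA-Leu, the dioxygenase-like protein and 3 probes with no locus. AT5G43180 (A_46_P312790) had 8.46, 7.61 and 7.68 at 22 °C against 8.22, 7.44 and 7.39 at 15 °C in HT, and EMB1473 (A_46_P188109) had 10.17, 9.71 and 10.33 against 10.36, 9.95 and 9.78. ABC4 (A_46_P315415) had 13.64, 13.15 and 13.40 against 13.41, 13.08 and 13.35, and the rhodanese-like protein AT4G27700 (A_46_P056106) had 8.21, 7.40 and 8.05 against 7.88, 7.41 and 7.78. In each of these the arrays of both temperatures overlapped. The dioxygenase-like protein (A_46_P003461) had 13.66, 13.13 and 13.71 against 13.63, 13.27 and 13.23, and A_46_P007571 had 11.27, 10.37 and 11.29 against 11.30, 10.78 and 10.66. A_46_P304240 had 15.21, 14.71 and 15.00 against 15.29, 14.72 and 14.74, and A_46_P155604 had 15.00, 14.55 and 14.83 against 15.03, 14.50 and 14.60. These overlapped as well. In HS, A_46_P289333 had 7.65, 6.75 and 8.18 at 22 °C against 8.04, 6.21 and 7.63 at 15 °C, also overlapping.

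The arrays of 22 and 27 °C shared 3 slides, each with 1 array of either line and temperature, which allows the upper step to be read within a slide. On slides 1 and 3 the median member was lower at 27 °C than at 22 °C by -0.38 and -0.94 in HT and by -0.66 and -0.87 in HS. On slide 2 the medians were -0.05 in HT and -0.06 in HS, with 23 and 22 of 34 members lower. The members with large steps differed from the median there. On slide 2, CXXS1 differed by -1.63 in HT and -1.01 in HS, RLP27 by -1.31 and -0.77, and XND1 by -0.91 and -1.26. Members lower at 27 °C than at 22 °C on all 3 slides numbered 23 in HT and 22 in HS. Counts within slides were not made over all probes, so nothing is read from them.

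In the mean of the members, the 22 °C arrays of slide 2 deviated from their group means by -0.31 in HT and -0.37 in HS. Its 27 °C arrays deviated by 0.11 in HT and 0.11 in HS. The reason was not tested. The mean of the 34 centred members was 0.61, 0.17 and 0.11 on the 15 °C arrays, 0.29, -0.25 and 0.14 on those of 22 °C and -0.24, -0.41 and -0.90 on those of 27 °C in HT, against 0.70, 0.16 and 0.60, then 0.09, -0.24 and 0.54, then -0.68, -0.35 and -0.34 in HS. Group means were 0.30 ± 0.27, 0.06 ± 0.28 and -0.52 ± 0.34 in HT, and 0.49 ± 0.28, 0.13 ± 0.39 and -0.45 ± 0.19 in HS, from 15 to 27 °C (SD, n = 3 each). The 27 °C arrays lay below the 15 °C arrays in both lines. The arrays of 22 °C overlapped both neighbours in HT and overlapped those of 15 °C alone in HS. Ranges within a group reached 0.78, in HS at 22 °C, beside a difference of -0.58 between 27 and 22 °C in either line.

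These shifts were shared by nearly the whole module. In HT at 27 °C all 34 members lay below their group mean on replicate 3 and all 34 above it on replicate 1, and in HS at 15 °C all 34 lay below it on replicate 2. After each group's mean had been taken out, the median correlation between pairs of members was 0.72, and 99.3% of pairs were positive. In the pink and magenta modules it was 0.02 and 0.11. The 6 groups accounted for a median of 61.1% of a member's variation over arrays, against 83.6% in the pink and 88.6% in the magenta module. Among every 40th probe well above background in some group the median was 69.6%, so the members lay below it. BAM3 and A_46_P364450 (86.9% to 91.1%), CXXS1 (88.5%), RLP27 (86.2%) and XND1 (83.4%) were mostly set by group, whereas A_46_P289333 (20.7%), the dioxygenase-like protein (25.3%) and CYP86A2 (27.6%) were not. Clustering used the correlations over these same arrays, so this is what made the members a module and is no separate finding.

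The mean of the green-tissue marker probes went with those shifts, and the mean of the meristem marker probes went against them. Of the markers looked for, 3 probes of green tissue were measured (a light-harvesting chlorophyll a/b-binding protein, sedoheptulose-bisphosphatase of the Calvin cycle and plastid psaA) and 3 of the meristem (1 of LFY, the floral meristem regulator, and 2 of the receptor kinase ERECTA), all well above background on 18 arrays. Probes of SHOOTMERISTEMLESS, WUSCHEL, CLAVATA and KNAT1 were not analysed here. The green probes averaged between 11.53 and 11.85 on the 15 °C arrays, 11.37 and 12.10 at 22 °C and 11.51 and 12.10 at 27 °C in HT, against 11.37 and 12.03, then 10.93 and 11.93, then 11.27 and 11.92 in HS. The meristem probes averaged between 9.99 and 10.37, then 10.25 and 10.67, then 10.25 and 10.69 in HT, against 9.72 and 10.03, then 9.57 and 10.47, then 9.84 and 10.27 in HS. Group averages of both sets overlapped between temperatures. Of the single markers, 1 in each line was called at 27 °C against 15 °C, both higher. The study places ERECTA and LFY in its brown module, selected on these arrays for higher levels at higher temperature. Temperature differences of these 2 genes are therefore a description, and nothing is read from them. ERECTA (A_46_P227114) had 7.79, 7.78 and 8.27 at 27 °C against 7.19, 7.33 and 7.59 at 15 °C in HT, a difference of 0.58, and psaA (A_46_P207014) had 10.75, 10.91 and 10.72 against 10.65, 10.33 and 10.18 in HS, a difference of 0.40.

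The mean deviation of the members had the sign of the green probes' deviation on 15 of 18 arrays and that of the meristem probes on 2 of 18. The correlation of these deviations was 0.91 with the green set (Spearman's rho 0.89, and r = 0.90 without the 2 farthest arrays) and -0.83 with the meristem set (rho -0.85, and -0.87 without the 2 farthest). The members themselves include 9 plastid probes, LHCA3 and CHLD among them, so the green set is not an outside reading. In HS at 22 °C, LFY (A_46_P351300) was at 7.57 on replicate 3, where the members were highest, and at 9.08 and 9.37 on the other arrays, while sedoheptulose-bisphosphatase (A_46_P328925) was at 11.92 there and at 11.13 and 10.28 on the others. Single markers did not all move alike. In HT at 27 °C, psaA (A_46_P207014) was at 10.43, 10.45 and 10.63, highest on replicate 3, where the members were lowest. The light-harvesting probe (11.78) and sedoheptulose-bisphosphatase (12.11) were at their lowest of that group there. The share of probes well above background followed the members less closely (0.34), as did the median intensity (-0.08). In a bulk sample fewer cells of a type and less RNA per cell cannot be told apart. The part of tissue make-up in the members' values was not tested.

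**Figure D3:**
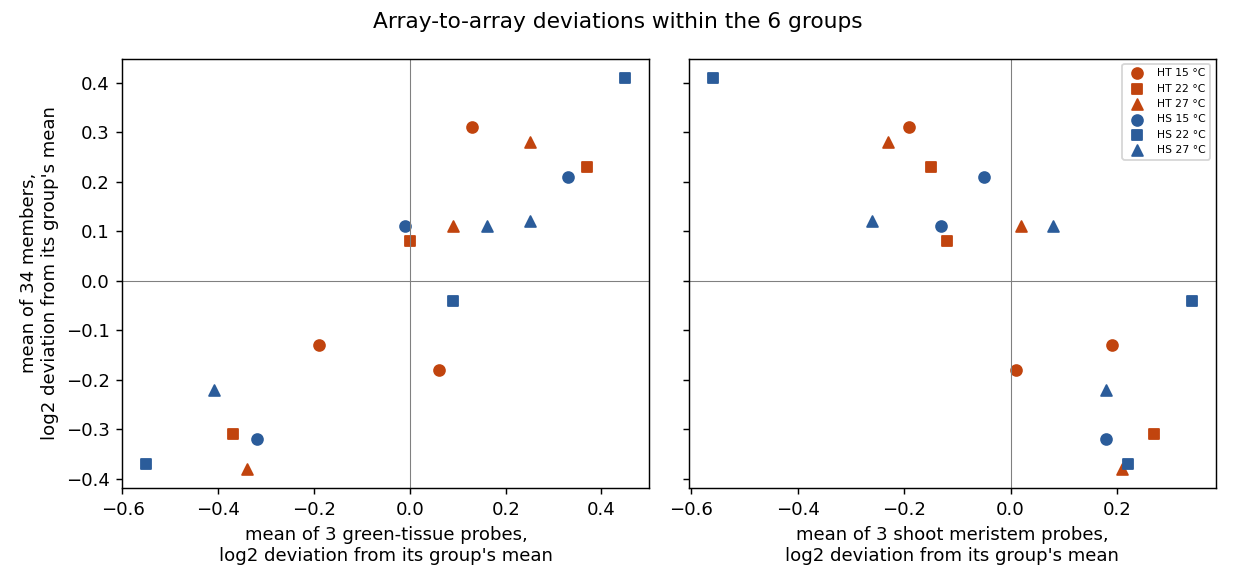
Deviation of each of 18 arrays from its group's mean, for the mean of 34 members (vertical axis) against 3 green-tissue probes (left) and 3 shoot meristem probes (right), in log2 units; colours mark HT and HS and symbols the temperature. Points rise to the right on the left panel (r = 0.91) and fall on the right panel (r = -0.83).

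Other transcripts shared the array-to-array shifts. Of 29576 non-member probes well above background in some group, 1540 (5.21%) had within-group deviations that correlated above 0.8 with the members' mean, and 894 (3.02%) correlated below -0.8. Over all arrays, group differences included, the members' correlation with the mean of the other members ran from 0.627 (the dioxygenase-like protein) to 0.960 (AT1G76878). Correlations above the lowest of these were found in 2044 non-members, the highest at 0.968. Most of these are not named here, and the network distance that decided membership was not recomputed.

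At 15 °C the median HT member stood at -0.29 relative to HS, with 27 of 34 lower in HT. At 22 and 27 °C the medians were -0.05 and -0.02, with 21 and 19 lower. Of all probes, 46.9%, 38% and 40.8% had a lower mean in HT at 15, 22 and 27 °C. Called members numbered 1 at 15 °C (tRNA-Leu, lower in HT, where 9.71% of all probes were called lower), 1 at 22 °C (A_46_P364450, lower in HT, beside 9.40% of all probes) and 0 at 27 °C, where limma called 19.7% of all probes in either direction and no member reached an unadjusted p under 0.05, which 28.8% of all probes did. With the replicate number as a block, the count at 15 °C was 3, where that fit called 25.4% of all probes in either direction. At 15 °C, 17 members were lower in HT in all 3 same-numbered pairs and 3 members in none, a count not made over all probes. The 7 members higher in HT at 15 °C were both BAM3 probes, A_46_P364450, XND1, RLP27, A_46_P289333 and A_46_P287203, the last with 7.64, 7.17 and 6.89 in HT against 7.33, 6.97 and 7.14 in HS. A_46_P289333 had 8.30, 7.18 and 7.11 in HT against 8.04, 6.21 and 7.63 in HS at 15 °C. HT and HS arrays never shared a position on the slide, and nor did the 22 and 27 °C arrays of a line, so position cannot be told apart from line or from that step.

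A filter on the difference between lines was recomputed here with limma, asking at any temperature for a fold of 1.2 or more and an adjusted p below 0.1. It was passed by 3 of 34 members, 8.82%, against 33% of all probes. The 3 were A_46_P364450, the prenyltransferase-family protein and tRNA-Leu. The pink module had 194 of 341 and the magenta module 216 of 328. With the methods' t-test the count of members was 0.

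No member's response to temperature was called different between the lines. For 27 °C against 15 °C the HT difference less the HS difference had a median of 0.28, with 0 members called by limma, where 0.378% of all probes were called, and 2 at an unadjusted p under 0.05, where 7.23% of all probes were. Terms for each step, added after the data had been seen, called 0 members for 22 °C against 15 °C, beside 0.0344% of all probes, and 0 for 27 °C against 22 °C, beside 0.00459%. At an unadjusted p under 0.05 there were 4 members for the lower step, beside 5.38% of all probes, and 0 for the upper, beside 2.77%. The largest gaps at the lower step belonged to BAM3, -0.96 ± 0.35 for A_46_P200034 and -0.86 ± 0.36 for A_46_P311765, and to A_46_P364450, -0.91 ± 0.29 (estimate ± SE). The SE of a typical member in these terms was 0.38, so that gaps of the size of most members' temperature differences were not detectable.

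**Figure D4:**
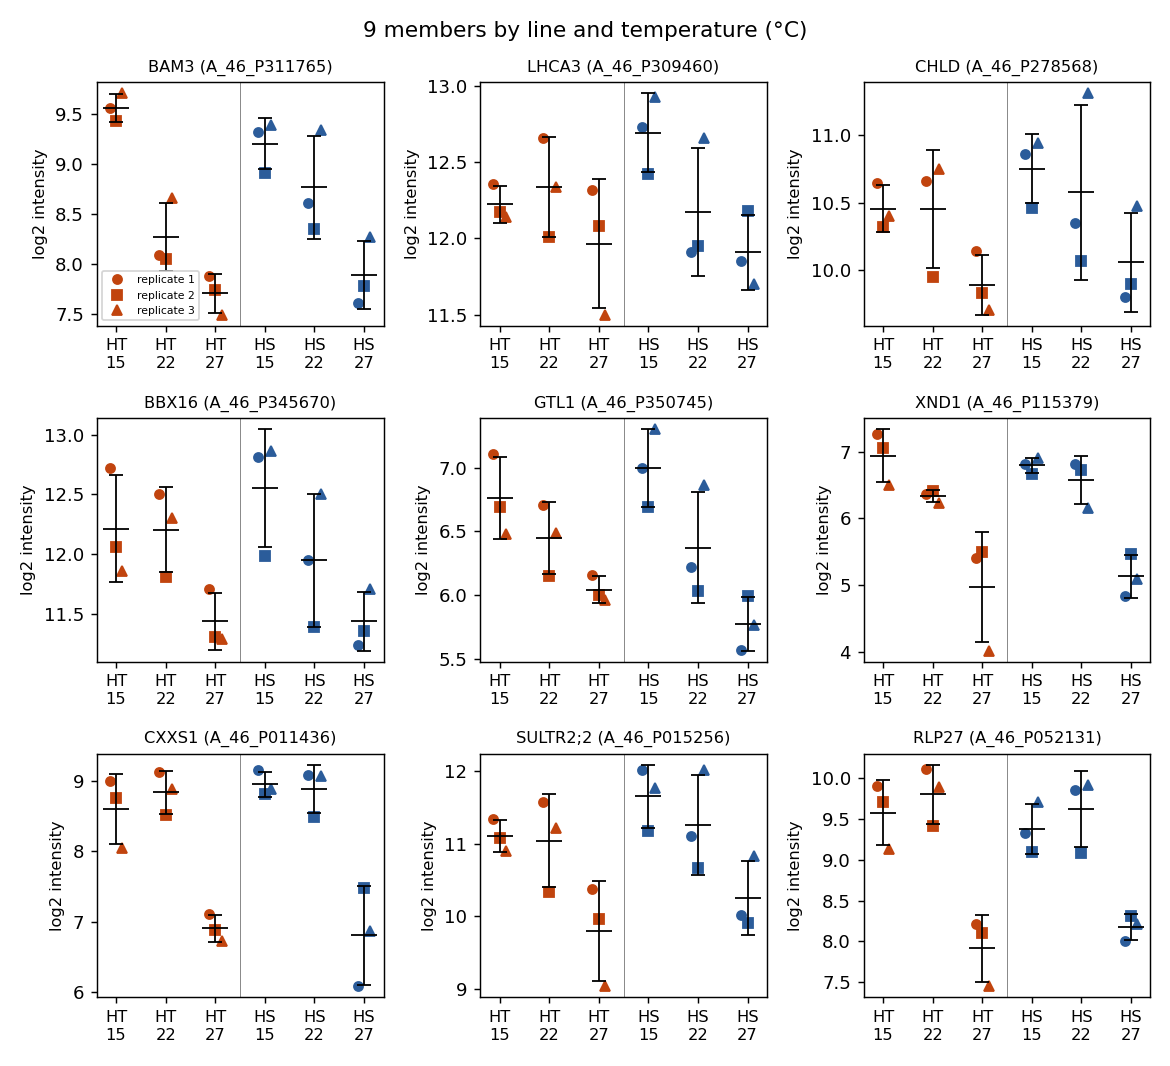
Log2 intensity of 9 members on every array by line and temperature, HT left of HS; symbols mark the replicate number, and bars give mean ± SD (n = 3). CXXS1, RLP27 and XND1 are separate at 27 °C in both lines, while LHCA3 and CHLD overlap between temperatures in HT or HS.

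Probes outside the module of the same genes or design targets gave a second reading on the same RNA and arrays, 8 in all, of which 3 were called lower at 27 °C than at 15 °C in HT and the same number in HS. For L-GalDH, A_46_P352330, which has another target than the member, gave a difference of -0.41 ± 0.08 in HT (limma, estimate ± SE, adjusted p = 0.00435), and in HS of -0.78 ± 0.08 (adjusted p = 4.7e-05). It was 0.84, 1.05 and 1.21 higher in HT than in HS at 15, 22 and 27 °C, all called by limma, where the member differed by -0.31, -0.10 and 0.10, none called. A_46_P222109, on the member's own target, gave -0.32 ± 0.10 in HT (limma adjusted p = 0.0315) beside -0.69 ± 0.10 for HS arrays (adjusted p = 0.000329). Its HT call was lost without HT 15 °C replicate 1 or 3 or HT 27 °C replicate 2 or 3 (differences between -0.34 and -0.27). Both were lower on all 3 arrays of 27 °C than on any of 15 °C in either line. The third was the magenta probe of BAM3, A_46_P265598, chosen like the members, at 14.12, 13.86 and 14.01 at 15 °C, 12.82, 12.63 and 13.11 at 22 °C and 12.37, 12.14 and 11.79 at 27 °C in HT, against 13.60, 13.13 and 13.66, then 12.82, 12.79 and 13.24, then 11.98, 12.21 and 12.02 in HS. It showed the early HT step of the BAM3 members.

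Other probes of members' genes did not pass. For CSLA9, A_46_P075746 on the member's target gave -0.29 ± 0.25 in HT (limma adjusted p = 0.493) against -0.60 ± 0.25 in HS (adjusted p = 0.134), and the pink probe A_46_P323730 by -0.11 ± 0.12 and -0.35 ± 0.12. A_46_P235294, on the target of A_46_P155844, differed by -0.30 ± 0.19 and -0.53 ± 0.19 (adjusted p = 0.327 and 0.0715). For the prenyltransferase-family protein, A_46_P091711 differed by -0.18 ± 0.22 and 0.12 ± 0.22 (adjusted p = 0.647 and 0.847). For RLP27, A_46_P369310 differed by 0.05 ± 0.43 and 0.13 ± 0.43 (adjusted p = 0.982 and 0.954), beside -1.66 and -1.20 of the member. Both of these have a target other than the member's.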

How the data were processed

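The authors deposited the scanner output of 18 arrays, whose processed intensity had been background-corrected by Agilent's Feature Extraction, and their own log2 values. Between arrays, the deposited log2 values differ as do log2 intensities shifted by each array's 75th percentile (within 0.01 for 100% of values). Controls and outlier-marked spots were dropped, and repeat spots of a probe were averaged. This gave 43603 probes, 165 with a missing value. Log2 intensities were quantile-normalized, as the methods name RMA, and limma 3.58.1 (R 4.3.3) fitted the 6 group means over 18 arrays, leaving 12 residual degrees of freedom. P-values were adjusted over all probes by Benjamini-Hochberg. The code was tested on simulated data. The interaction term recovered fewer changed probes there than the first pass rule asked, and the rule was then relaxed for that term. Arrays have no read depth, so their number limits the precision: 63.9% to 69.8% of probes were well above background, and none were saturated. With 3 against 3 arrays an exact permutation test cannot reach 0.05 (smallest p 0.1), so none was run.

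The members, lists and tests were chosen with earlier results of these data known. Probes were named by the study's lists. Values on every array are printed for members the text turns on, for the 3 with the largest change in each line and for those against the majority direction, except line differences at 22 and 27 °C, which were nearly evenly split. None of the members' targets was found in the reference gene table. Same-numbered arrays counted as paired where all 3 correlations of their deviations were over 0.1. This held in HT against HS at 15 °C alone (correlations 0.129, 0.135 and 0.190, and on shared slides). Alternatives tried were normexp with offset 50, the 75th percentile shift, the authors' values, only probes well above background, replicate or slide blocks, only the arrays compared, the methods' t-test and leaving out each array. Added after seeing the data were the 2 single-step interaction terms, the marker deviations and the steps without single arrays. Figures used matplotlib 3.10.9 in Python 3.11.15.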

Additional observations from a re-analysis of the deposited data

How the results depend on the processing

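The median difference of the members could not move in the fit to only probes well above background, which used the same member values. Slide by slide it did differ. For 27 °C against 22 °C it was -0.38, -0.05 and -0.94 on slides 1 to 3 in HT, and -0.66, -0.06 and -0.87 in HS. For HT against HS at 27 °C it was 0.41, -0.06 and -0.48. Under the other normalizations and without single arrays it moved by less than 1 SD between arrays in all 9 comparisons, but single arrays mattered. As they were left out in turn, it ran from -0.22 to 0.02 for 22 °C against 15 °C in HT, -0.63 to -0.30 for 27 °C against 22 °C and -0.74 to -0.38 for 27 °C against 15 °C (highest without HT 27 °C replicate 3 in the last 2), and in HS from -0.55 to -0.18, -0.66 to -0.22 (-0.22 without HS 22 °C replicate 3) and -0.99 to -0.71. For HT against HS it ran from -0.41 to -0.15 at 15 °C, -0.20 to 0.18 at 22 °C and -0.14 to 0.10 at 27 °C. Leaving out single arrays gave 9 to 14 called members for 27 °C against 15 °C in HT and 13 to 20 in HS, always 3 for 22 °C against 15 °C and 2 for 27 °C against 22 °C in HT, 0 to 4 for 22 °C against 15 °C in HS (4 without HS 22 °C replicate 3), 1 to 5 for 27 °C against 22 °C in HS (1 without HS 27 °C replicate 1, 3 without its replicate 2, and 2 without HS 22 °C replicate 1 or 3). For HT against HS they gave 0 to 1 at 15 °C (0 without replicate 3 of either line, HT replicate 2 or HS replicate 1), 0 to 2 at 22 °C (0 without HT replicate 1 or 2 or HS replicate 3, and 2 without HT replicate 3) and 0 at 27 °C. The interaction for 27 °C against 15 °C stayed at 0.

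Fitting only the arrays compared called 0 members at 27 °C against 22 °C, where it called 0.0206% of all probes in HT and 0.0275% in HS. It called 0 at 22 °C against 15 °C in HS (1.36% of all probes). For HT against HS it called 0 at 15 °C (17.8%) and 0 at 22 °C (15.4%). Shares of all probes here are in either direction. The methods' t-test, at its adjusted p under 0.1, gave 0 for the same comparisons and 11 for 27 °C against 15 °C in HS. In that order it called 0%, 0.0596%, 1.69%, 19.7%, 17% and 8.58% of all probes. The 22 °C against 15 °C count in HS was 2 with normexp (6.5% of all probes) and 2 with only probes well above background (10.5% of those tested). For HT against HS at 15 °C the 75th percentile shift and the authors' values gave 0 (19.5% and 19.4% of all probes). The cause was not tested in these cases.

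The replicate block gave 2 called members for 22 °C against 15 °C in HS (9.51% of all probes). For HT against HS it gave 3 at 15 °C (25.4%) and 2 at 22 °C (24.4%). It changed no other count of members by over 1.5 times. By the cutoff of 0.1 on all correlations, the replicate numbers paired the arrays in no other comparison, with correlations down to -0.044. For 27 °C against 22 °C in HT they were 0.147, 0.098 and 0.118, the second just short of it. Each array matched its own number best there, at 27 °C against 15 °C in HT, and in HT against HS at every temperature. Same-numbered arrays of 22 and 27 °C share slides, so some pairing is not excluded.

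Of single members at 27 °C against 15 °C, ABC4 in HT moved to 0 without HT 27 °C replicate 3 (range -0.28 to 0), tRNA-Leu in HT ran from -0.27 to 0.10 (0.10 without HT 15 °C replicate 1), and the dioxygenase-like protein in HS from -0.13 to 0.07. Of the probes outside the module, 2 to 3 were called in HT and 3 to 5 in HS as arrays were left out (5 without HS 27 °C replicate 2), and 5 in HS with only probes well above background or with the replicate block. A_46_P091711 ran from -0.12 to 0.26 in HS and A_46_P369310 from -0.39 to 0.45.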
